A study of Homo sapiens with 16 samples.

Results

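The enzymes of glycolysis and of the tricarboxylic acid (TCA) cycle were followed in 38 genes, picked by gene symbol from the 20531 entries of the count table. By role, 8 run from hexokinase to aldolase, 7 from triose phosphate to pyruvate, 2 encode lactate dehydrogenase subunits, 6 the pyruvate dehydrogenase complex and its kinases, 7 lead from citrate synthase to oxoglutarate and 8 from oxoglutarate to oxaloacetate. Succinate dehydrogenase was not a member. The genes were measured by RNA sequencing in LNCaP, an androgen-sensitive human cell line derived from a metastasis of prostate cancer. All cells were transfected at 40 nM for 24 h, either with a nonsense control siRNA (NS) or with a pool of siRNAs against SLIRP, and then kept for 24 h in serum-free medium with ethanol vehicle (Veh) or 1 nM dihydrotestosterone (DHT). The NS-Veh and SLIRP-Veh groups, and the NS-1nM DHT and SLIRP-1nM DHT groups, had 4 libraries each. The libraries come, by the study's methods, from 2 experiments with 2 biological replicates each, and no untransfected cells were analysed here.

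Glycolysis turns glucose into pyruvate in the cytosol, and its hexokinase, phosphofructokinase and pyruvate kinase steps are the regulated ones. Pyruvate is reduced to lactate by lactate dehydrogenase, or enters mitochondria, where the pyruvate dehydrogenase complex makes the acetyl-CoA that the TCA cycle oxidises. Normal prostate epithelium secretes citrate instead of oxidising it, and androgens are known to stimulate sugar use and lipid synthesis in LNCaP cells. SLIRP is an RNA-binding protein that represses nuclear receptors and also binds mitochondrial mRNAs, whereas all 38 members are nuclear genes.

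Library totals ran from 436353 to 1689708 assigned reads, and replicates of a group differed beyond sampling noise (chi-square per degree of freedom from 1.21 to 2.37). SLIRP mRNA (listed as C14orf156) lay at 44.3 to 63.6 CPM (TMM-scaled counts on a common library size) in NS libraries. With SLIRP siRNA it lay at 1.41 to 8.13 CPM, from 2 to 5 reads in SLIRP-Veh and 1 to 10 in SLIRP-1nM DHT. The lowest of these rest on too few reads to give a level. KLK3, the androgen-induced gene for prostate-specific antigen, averaged 39.2 CPM in NS-Veh and 285 CPM in NS-1nM DHT. All 9 luminal prostate markers examined were detected, whereas 5 of 8 markers of blood, endothelial, fibroblast and basal cells had 0 counts in every library, and COL1A1 had the highest level of the other 3, at 5.64 to 21.9 CPM. The summed level of the 9 luminal markers was 4077 to 4620 CPM over the NS libraries and 3013 to 3595 CPM with SLIRP siRNA. This sum thus moved with the siRNA comparison below, and its part in the results was not tested. FOLH1 had the highest level of the 9, at 1024 to 2108 CPM. The sum does not stand for each marker, since KLK3 was higher with SLIRP siRNA, averaging 95.7 CPM in SLIRP-Veh and 373 CPM in SLIRP-1nM DHT. The other markers are not given by group here. In such bulk samples fewer cells of a type and less RNA per cell cannot be told apart.

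All 38 members were expressed well enough to be tested in every comparison. Per kilobase of transcript, GAPDH was the highest of them in NS-Veh, at 1401 ± 167 CPM per kb (SD, n = 4), followed by ALDOA at 457 ± 9.59 CPM per kb. PKM2 (371 ± 44.1 CPM per kb), TPI1 (323 ± 42.8), ENO1 (305 ± 48.9) and IDH1 (293 ± 42.0) came next and were within their spread of one another. The lowest were PDK1, at 5.38 ± 0.538 CPM per kb, and HK2, at 4.79 ± 1.09 CPM per kb. The place of PDK1 rests on a canonical transcript of 14.1 kb over which its 75.8 CPM were divided. The 6 highest were thus cytosolic enzymes, 4 of them from lower glycolysis, although ENO2 of lower glycolysis stood near the end. Together the members took 0.973% ± 0.0530 of all assigned reads (SD, n = 4) in NS-Veh and 1.04% ± 0.0508 in SLIRP-Veh, and with DHT 1.07% ± 0.0413 for NS and 1.14% ± 0.0745 for SLIRP siRNA.

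The 16 libraries were first split by siRNA, 8 against 8, the contrast that the study drew to find genes affected by SLIRP knockdown. At a false discovery rate (FDR, Benjamini-Hochberg adjusted p of edgeR's quasi-likelihood test) of at most 0.01, 11 of the 38 members were higher and 6 lower with SLIRP siRNA. Of all 10167 genes in this test, 17.8% rose and 17.4% fell, so the share of members that fell was near the background and the share that rose was above it, a difference that was not tested. The median log2 fold change was 0.13 over the members and -0.01 over all genes tested. Expression moved in opposite directions within upper glycolysis, where 3 of 8 members rose and 4 fell, while each of the 3 members called in lower glycolysis, the LDHA subunit and the 2 called members of the pyruvate dehydrogenase complex rose.

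**Figure D1:**
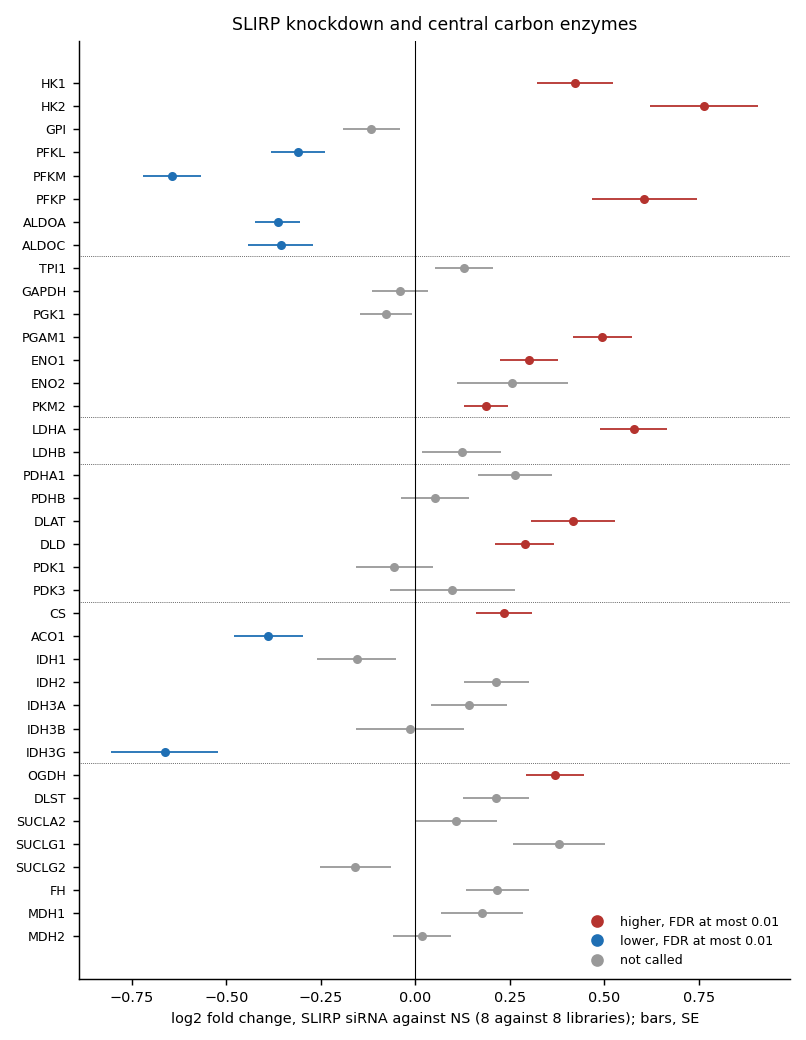
Log2 fold change of the 38 members with SLIRP siRNA against NS (x axis, 8 against 8 libraries, bars are standard errors), ordered along the pathway with dotted lines between roles. Red points are the 11 members higher and blue points the 6 members lower at an FDR of at most 0.01, and grey points were not called. IDH3G (-0.66) and PFKM (-0.64) lie farthest left and HK2 (0.76) farthest right.

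The hexokinases, which phosphorylate glucose as it enters the cell, were higher with SLIRP siRNA. HK2 (chr2:75061254-75120486 in hg19, GENCODE annotation, as for the other loci given here), the inducible isoform, had 27.2, 20.5, 35.1 and 24.9 CPM in the 4 NS-Veh libraries and 45.0, 44.2, 49.95 and 54.4 CPM in SLIRP-Veh. In DHT it had 48.4, 38.9, 31.1 and 26.2 CPM with NS and 67.2, 53.6, 56.8 and 71.5 CPM with SLIRP siRNA. The groups did not overlap within either treatment, although the highest NS-1nM DHT library stood above some SLIRP-Veh libraries. The log2 fold change was 0.76 (SE 0.14, edgeR FDR 5.50e-05), which is 1.70-fold. HK1 (chr10:71029740-71161640), the constitutive isoform, had 122, 130, 135 and 124 CPM in NS-Veh and 174, 184, 137 and 166 in SLIRP-Veh, and with DHT had 118, 153, 97.6 and 108 for NS and 216, 192, 140 and 136 for SLIRP siRNA. The vehicle groups were separate, whereas in DHT the lower knockdown libraries lay below the highest control. Its log2 fold change was 0.42 (SE 0.10, edgeR FDR 0.000880).

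Phosphofructokinase, the main control point of glycolysis, showed a change of isoforms. PFKM (chr12:48498922-48540187), the muscle-type subunit, had 167, 168, 207 and 189 CPM in NS-Veh and 112, 117, 128 and 135 CPM in SLIRP-Veh. In DHT, PFKM had 180, 168, 185 and 176 CPM with NS and 105, 104, 105 and 127 CPM with SLIRP siRNA. All 8 knockdown libraries were below all 8 controls, with a log2 fold change of -0.64 (SE 0.08, edgeR FDR 2.90e-08). PFKP (chr10:3108525-3179910), the platelet-type subunit, was in contrast higher. It had 35.0, 20.5, 31.1 and 41.8 CPM in NS-Veh and 49.8, 47.2, 49.95 and 33.3 in SLIRP-Veh, and with DHT had 27.8, 22.1, 37.1 and 27.6 for NS and 50.4, 40.9, 52.9 and 52.8 for SLIRP siRNA. The DHT groups were separate, and in vehicle the fourth SLIRP siRNA library fell among the controls. The log2 fold change of PFKP was 0.61 (SE 0.14, edgeR FDR 0.000589). PFKL (chr21:45719934-45747259), the liver-type subunit, had 122, 130, 147 and 154 CPM in NS-Veh and 115, 123, 114 and 108 in SLIRP-Veh, and with DHT had 138, 150, 140 and 145 for NS and 119, 108, 112 and 126 for SLIRP siRNA. It was lower by a smaller margin, with a log2 fold change of -0.31 (SE 0.07, edgeR FDR 0.000634).

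Aldolase, which splits fructose bisphosphate, was lower in both isoforms detected. ALDOA (chr16:30075485-30081778), the major isoform, had 746, 731, 751 and 769 CPM in NS-Veh and 536, 500, 620 and 639 in SLIRP-Veh. In DHT it had 784, 768, 801 and 783 CPM with NS and 573, 613, 613 and 708 with SLIRP siRNA. The controls were tightly grouped and all 8 knockdown libraries lay below them, with a log2 fold change of -0.36 (SE 0.06, edgeR FDR 8.49e-06). ALDOC (chr17:26900133-26903966), the brain-type isoform, had 99.1, 109, 104 and 97.2 CPM in NS-Veh and 76.2, 88.3, 85.4 and 78.04 in SLIRP-Veh, and with DHT had 118, 125, 116 and 104 for NS and 84.1, 93.02, 102 and 86.1 for SLIRP siRNA. It did not overlap within either treatment and had a log2 fold change of -0.36 (SE 0.09, edgeR FDR 0.00101). GPI, the isomerase between hexokinase and phosphofructokinase, did not pass the test (-0.12, SE 0.08, edgeR FDR 0.211). On the genome, 24 of the 38 members overlap another annotated locus, among them PFKM (SENP1, on the opposite strand), ALDOA, ALDOC, PFKP, ENO1, LDHA, DLAT, DLD and CS. The strand setting of the counting is not given in the sources used here, so reads shared with those loci cannot be set apart.

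In lower glycolysis, PGAM1 (chr10:99185948-99193201), which converts 3-phosphoglycerate to 2-phosphoglycerate, was higher. It had 229, 232, 219 and 226 CPM in NS-Veh and 351, 286, 342 and 381 in SLIRP-Veh, and with DHT had 243, 254, 285 and 300 for NS and 305, 369, 356 and 436 for SLIRP siRNA. The groups were separate within each treatment, and the log2 fold change was 0.49 (SE 0.08, edgeR FDR 5.06e-06). ENO1, the main enolase, was higher by 0.30 (SE 0.08, edgeR FDR 0.00175). PKM2, the symbol the file uses for pyruvate kinase PKM, had a log2 fold change of 0.19 (SE 0.06) and an edgeR FDR of 0.00995, just inside the threshold, and its call was lost when any of 10 of the 16 libraries was left out. TPI1 (0.13, SE 0.08), GAPDH (-0.04, SE 0.07), PGK1 (-0.08, SE 0.07) and ENO2 (0.26, SE 0.15) did not pass. PGAM1 has 13, LDHA 6 and GAPDH 65 annotated pseudogenes, near-identical copies among which reads could have been divided, so the levels of these genes are uncertain to that extent.

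LDHA (chr11:18416107-18429972), the subunit of lactate dehydrogenase that favours lactate formation, had 328, 371, 421 and 406 CPM in NS-Veh and 586, 472, 609 and 589 CPM in SLIRP-Veh. In DHT it had 427, 447, 514 and 517 CPM with NS and 702, 674, 798 and 768 CPM with SLIRP siRNA. Within each treatment every knockdown library was above every control. The log2 fold change was 0.58 (SE 0.09, edgeR FDR 3.16e-06), or 1.49-fold. LDHB, the subunit that favours lactate oxidation, had 115, 123, 140 and 153 CPM in NS-Veh and 123, 123, 193 and 177 in SLIRP-Veh, and with DHT had 174, 158, 178 and 167 for NS and 176, 149, 202 and 201 for SLIRP siRNA. The groups overlapped, and the log2 fold change of 0.12 (SE 0.10, edgeR FDR 0.354) did not pass the test.

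**Figure D2:**
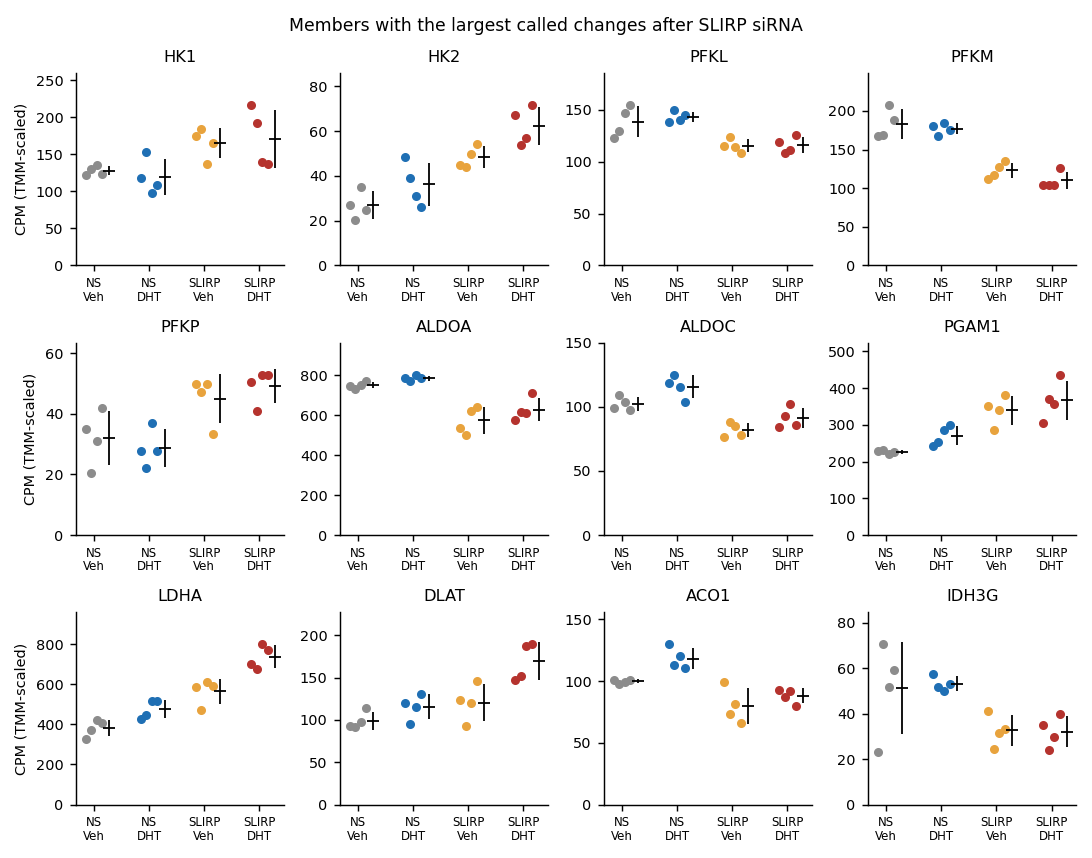
CPM (y axis, from 0) in each of the 16 libraries for the 12 members with the largest called rises and falls after SLIRP siRNA, by group on the x axis. Points are libraries in replicate order, and the cross with its bar is the mean ± SD of 4. PFKM and ALDOA are lower in all 8 knockdown libraries than in any control, and the 23.3 CPM of IDH3G in the first NS-Veh library is below all of the other NS libraries.

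In the pyruvate dehydrogenase complex, DLAT (chr11:111896132-111935128), its acetyltransferase core, was higher with SLIRP siRNA. It had 93.2, 91.1, 97.4 and 114 CPM in NS-Veh and 123, 92.9, 120 and 146 in SLIRP-Veh, and with DHT had 120, 95.3, 116 and 130 for NS and 147, 152, 188 and 189 for SLIRP siRNA. The groups were separate in DHT but not in vehicle, and the log2 fold change was 0.42 (SE 0.11, edgeR FDR 0.00253). DLD, the dehydrogenase subunit shared with the oxoglutarate dehydrogenase complex, was higher by 0.29 (SE 0.08, edgeR FDR 0.00298). The catalytic subunits PDHA1 (0.26, SE 0.10, edgeR FDR 0.0258) and PDHB (0.05, SE 0.09) did not pass, nor did the inhibitory kinases PDK1 (-0.06, SE 0.10) and PDK3 (0.10, SE 0.17).

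Of the enzymes from citrate synthase to oxoglutarate, 1 rose and 2 fell. CS, which makes citrate, was higher by 0.23 (SE 0.07, edgeR FDR 0.00907), a call lost when any of 9 of the 16 libraries was left out. ACO1 (chr9:32384601-32454767), the cytosolic aconitase that also binds iron-responsive mRNAs, had 101, 97.9, 99.4 and 101 CPM in NS-Veh and 99.0, 73.1, 81.5 and 65.8 in SLIRP-Veh, and with DHT had 130, 113, 120 and 111 for NS and 93.1, 87.4, 92.3 and 79.6 for SLIRP siRNA. It was lower in every knockdown library in DHT, and in vehicle the groups touched only at their edges, with a log2 fold change of -0.39 (SE 0.09, edgeR FDR 0.000773). IDH3G (chrX:153051221-153059967), the regulatory gamma subunit of the mitochondrial NAD-linked isocitrate dehydrogenase, had 23.3, 70.6, 51.7 and 59.5 CPM in NS-Veh and 41.4, 24.4, 31.6 and 33.3 in SLIRP-Veh, and with DHT had 57.7, 51.9, 50.1 and 53.1 for NS and 34.9, 23.96, 29.8 and 39.8 for SLIRP siRNA. Except for the first NS-Veh library, a shallow library with 12 counts for this gene, every control was above every knockdown library. The log2 fold change of IDH3G was -0.66 (SE 0.14, edgeR FDR 0.000262), and its locus overlaps SSR4 on the other strand.

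The other subunits of the NAD-linked enzyme did not share the fall. IDH3A, the catalytic alpha subunit, had 56.3, 66.03, 64.9 and 53.8 CPM in NS-Veh and 60.6, 56.4, 61.8 and 64.01 in SLIRP-Veh, and with DHT had 58.7, 70.2, 56.1 and 56.01 for NS and 75.01, 60.6, 70.2 and 83.7 for SLIRP siRNA, with a log2 fold change of 0.14 (SE 0.10, edgeR FDR 0.262). IDH3B, the beta subunit, had 46.6, 50.1, 37.1 and 32.95 CPM in NS-Veh and 46.2, 41.1, 43.4 and 26.3 in SLIRP-Veh, and with DHT had 32.96, 38.1, 41.5 and 52.4 for NS and 58.2, 35.2, 40.4 and 35.8 for SLIRP siRNA, with a log2 fold change of -0.02 (SE 0.14, edgeR FDR 0.945), and for both genes the groups overlapped in each treatment. The NADP-linked enzymes IDH1 (-0.16, SE 0.10) and IDH2 (0.21, SE 0.09) did not pass over all 16 libraries. Between oxoglutarate and oxaloacetate, only OGDH of the 8 members passed, higher by 0.37 (SE 0.08, edgeR FDR 0.000234). It is the decarboxylase of the oxoglutarate dehydrogenase complex and the only member whose 8 knockdown libraries were all above the 8 controls, as against 2 members (PFKM and ALDOA) that were all below. Over all genes tested, 7.95% were separated upward and 6.89% downward. SUCLG1, a subunit of succinyl-CoA ligase, missed the threshold at 0.38 (SE 0.12, edgeR FDR 0.0107), and DLST, SUCLA2, SUCLG2, FH, MDH1 and MDH2 lay between -0.16 and 0.22.

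**Figure D3:**
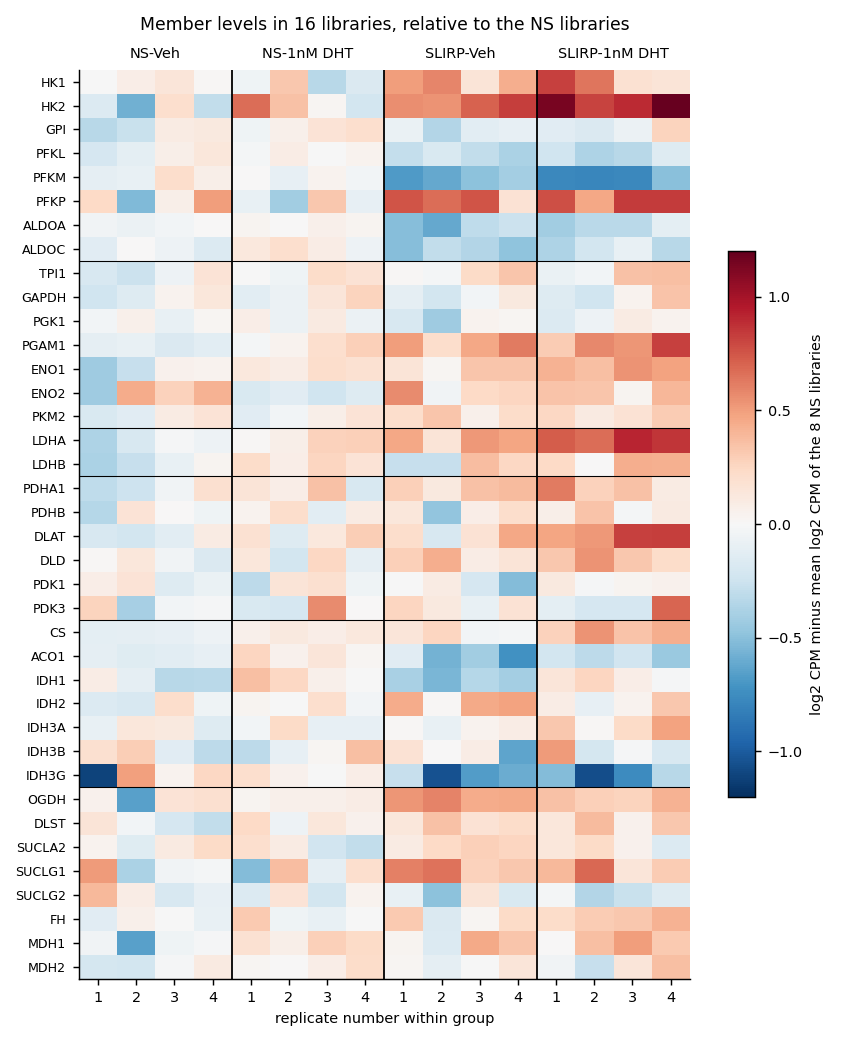
Log2 CPM of each member (rows, by role) in each library (columns, by group and replicate number) minus its mean over the 8 NS libraries, with red higher and blue lower; the colour scale is limited at 1.2 in either direction. The rows of HK2, LDHA, PGAM1 and OGDH are red, and those of PFKM and ALDOA blue, throughout the 8 SLIRP siRNA libraries.

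The changes were then read within each treatment, in contrasts that each use their own controls. In vehicle, 6 members were higher (HK2, PGAM1, ENO1, LDHA, IDH2 and OGDH) and 2 lower (PFKM and ALDOA), where 11.8% of all 10684 genes rose and 9.95% fell. In DHT, 8 were higher (HK1, HK2, PFKP, PGAM1, ENO1, LDHA, DLAT and CS) and 4 lower (PFKM, ALDOA, ACO1 and IDH3G), against 12.8% and 11.6% of all genes. Both treatments called 6 members in the same direction (HK2, PGAM1, ENO1, LDHA, PFKM and ALDOA) and none in opposite directions. The matching shares over all genes were not counted, so this overlap cannot be read as particular to the members. The libraries did not overlap for 6 members upward and 4 downward in vehicle, against 15.3% and 13.9% of all genes, and for 9 upward and 6 downward in DHT, against 16.3% and 15.8%. The median log2 fold change of the members was 0.16 in vehicle and 0.10 in DHT.

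Several of these within-treatment calls depended on few libraries. The vehicle call of HK2 (0.76, SE 0.20, edgeR FDR 0.00263) was lost without the fourth NS-Veh library (FDR 0.0168) or the fourth SLIRP-Veh library (FDR 0.0110). The vehicle call of IDH2 (0.37, SE 0.11, edgeR FDR 0.00867) was lost in 16 of 27 alternatives, 11 of which left out 1 library, with a log2 fold change of 0.34 to 0.39 among those. IDH2 had 128, 125, 166 and 138 CPM in NS-Veh and 195, 145, 196 and 201 in SLIRP-Veh, and with DHT had 146, 143, 165 and 140 for NS and 153, 134, 147 and 179 for SLIRP siRNA, so that 3 SLIRP-Veh libraries stood above all others. The ENO1 call was lost without any of 4 libraries in vehicle and any of 3 in DHT. In DHT the calls of HK1 and IDH3G were each lost in 7 of 27 alternatives, and that of ACO1 in 6, among them DESeq2 (FDR 0.0137). For HK1 these included leaving out replicate 1, 3 or 4 of NS-1nM DHT or replicate 1 or 2 of SLIRP-1nM DHT (edgeR FDR 0.0102 to 0.0463). For IDH3G they included replicate 1, 2 or 4 of NS-1nM DHT or replicate 2 or 3 of SLIRP-1nM DHT (edgeR FDR 0.0105 to 0.0193). For ACO1 they included replicate 1 or 3 of NS-1nM DHT or replicate 4 of SLIRP-1nM DHT (edgeR FDR 0.0129 to 0.0301). The DHT call of CS was lost without replicate 2 of SLIRP-1nM DHT.

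Isoform shares, a description within each enzyme that needs no scaling between libraries, followed these changes. PFKM made up 51.8% ± 2.05 of the reads of the 3 phosphofructokinase genes in NS-Veh and 50.8% ± 1.10 in NS-1nM DHT, and 43.5% ± 3.91 in SLIRP-Veh and 39.9% ± 1.61 with DHT after SLIRP siRNA (SD, n = 4 each). PFKP made up 9.04% ± 2.17 and 8.19% ± 1.55 in the NS groups and 15.9% ± 2.63 and 17.9% ± 1.51 in the SLIRP siRNA groups. The PFKL share stayed within 39.2% to 42.2% in the group means. The 3 shares make up a whole, so the lower PFKM share and the higher PFKP share are not separate results. PFKM averaged 183 CPM in NS-Veh and 123 in SLIRP-Veh, and 177 and 110 with DHT. PFKP averaged 32.1 and 45.1 CPM with vehicle and 28.7 and 49.3 with DHT, a smaller rise than the fall of PFKM. PFKL was itself lower, at 138 and 115 CPM with vehicle and 143 and 116 with DHT. The LDHA share of lactate dehydrogenase reads was 74.2% ± 1.15 in NS-Veh and 78.7% ± 3.01 in SLIRP-Veh, and with DHT 73.7% ± 1.92 for NS and 80.2% ± 1.12 for SLIRP siRNA, and no knockdown library was below any control. The IDH3G share of the NAD-linked isocitrate dehydrogenase reads was 32.6% ± 9.88 and 34.5% ± 2.85 in NS and 24.5% ± 3.66 and 21.8% ± 2.23 with SLIRP siRNA, with the first NS-Veh library at 18.5%. For aldolase the ALDOA share was 87.1% to 88.0% in all 4 groups, since both isoforms fell by like amounts.

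**Figure D4:**
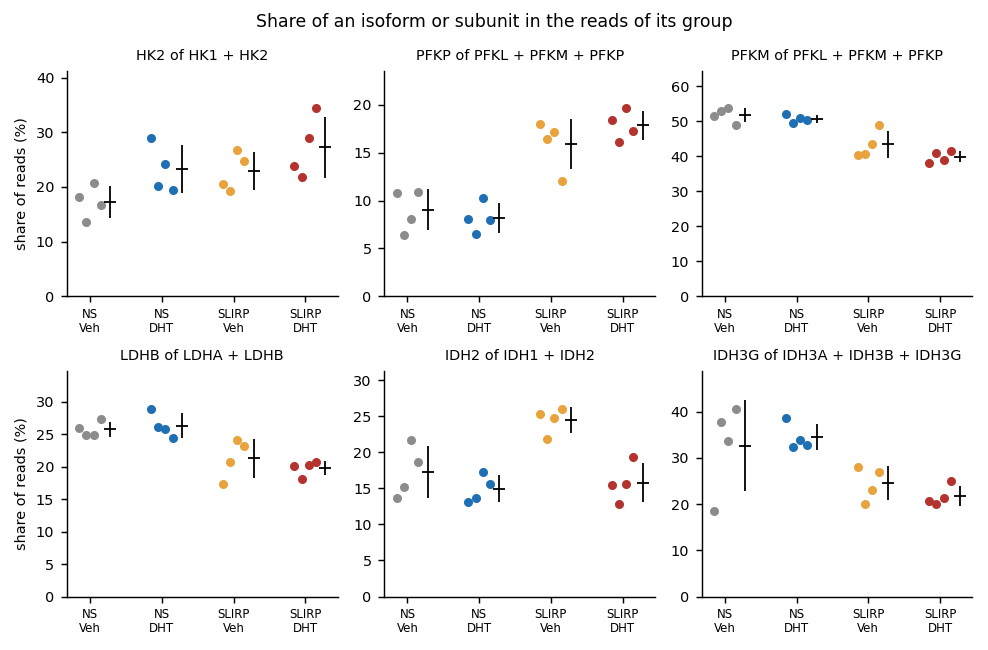
Share of reads (y axis, percent, from 0) that an isoform or subunit took within its enzyme, in each library by group, with mean ± SD of 4. PFKP is above and PFKM below their NS values in every SLIRP siRNA library. The IDH2 share is highest in SLIRP-Veh.

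The promoters of some members are printed to show 2 short words known from genes of sugar metabolism. These are ACGTG, a form of the core of the hypoxia response element, and CACGTG, an E-box, which contains ACGTG. Other forms of that core were not searched. Sequences are from RefSeq on GRCh38.p14, on the strand of the gene, and both words were searched on both strands in the windows around each start site that RefSeq's promoter table gives. Of the 37 members matched, 17 (45.9%) had ACGTG in at least 1 window, against 24.9% of all genes, and 6 (16.2%) had CACGTG, against 8.77%. Members can have several windows, and by window the shares were 34.4% of 61 for ACGTG against 21.4% of all windows, and 9.84% against 7.26% for CACGTG. A match is a word in the sequence and not a measured binding site. A window of LDHA (chr11:18394313-18394612, plus strand) held 3 separate matches, overlapping ones counted once, and is shown whole with the matches in capitals, while HK2 held 4 over its 2 windows.
LDHA: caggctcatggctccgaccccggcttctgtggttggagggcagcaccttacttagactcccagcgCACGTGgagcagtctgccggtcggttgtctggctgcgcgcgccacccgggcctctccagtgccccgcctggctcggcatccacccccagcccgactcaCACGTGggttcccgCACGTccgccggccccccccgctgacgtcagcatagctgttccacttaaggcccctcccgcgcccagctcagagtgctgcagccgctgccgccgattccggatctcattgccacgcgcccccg
Stretches of 41 bases around a match, again in capitals, follow for 3 members that were higher with SLIRP siRNA (HK2, PFKP and DLAT) and 4 that were lower (PFKM, ALDOA, ALDOC and IDH3G).
HK2 (chr2:74835004-74835044, plus strand): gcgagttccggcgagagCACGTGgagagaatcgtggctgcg
PFKP (chr10:3069032-3069072, plus strand): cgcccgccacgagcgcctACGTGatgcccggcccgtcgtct
DLAT (chr11:112025355-112025395, plus strand): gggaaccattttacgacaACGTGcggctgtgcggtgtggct
PFKM (chr12:48105341-48105381, plus strand): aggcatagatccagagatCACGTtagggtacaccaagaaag
ALDOA (chr16:30064368-30064408, plus strand): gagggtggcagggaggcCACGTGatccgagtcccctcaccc
ALDOC (chr17:28576901-28576941, minus strand): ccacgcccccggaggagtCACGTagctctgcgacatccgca
IDH3G (chrX:153794330-153794370, minus strand): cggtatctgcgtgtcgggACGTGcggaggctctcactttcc
ACGTG was thus present in members that rose and in members that fell, and it was not found in the windows of HK1, PGAM1, PFKL and ACO1. The PGAM1 window (chr10:97427568-97427867) was not checked against the annotated start of the gene. The main promoter of PGAM1 may therefore not have been searched.

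DHT was compared with vehicle within each siRNA. The study defined its androgen signature from the NS contrast alone. In NS cells, no member passed an edgeR FDR of 0.01 in either direction, and DESeq2 also called 0. The count depended on the settings: LDHA and IDH1 were called higher with no filter on low counts, IDH1 with at least 10 counts in every library or without NS-Veh replicate 1 or NS-1nM DHT replicate 4, and ENO1, LDHA and IDH1 with a covariate for replicate numbers 1 and 2 against 3 and 4, which was chosen after seeing the data. Of all 10367 genes in this test, 0.849% rose and 0.463% fell. The values leaned upward: 32 of 38 members (84.2%) had a positive log2 fold change, against 50.1% of all genes, and their median was 0.09 against 0.00 over all genes. An unadjusted edgeR p under 0.05 was found for 9 members (23.7%) and for 14.3% of all genes. For 7 members every NS-1nM DHT library was above every NS-Veh library and for 0 below, against 4.73% and 4.00% of all genes. These were PGAM1 (log2 fold change 0.27, SE 0.09), ENO1 (0.25, SE 0.08), LDHA (0.29, SE 0.08), LDHB (0.30, SE 0.10), CS (0.19, SE 0.07), ACO1 (0.23, SE 0.10) and MDH1 (0.30, SE 0.13). ENO2, the neuronal enolase, had the lowest value, at -0.44 (SE 0.21, edgeR FDR 0.343).

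IDH1 (chr2:209100953-209130798), the cytosolic NADP-linked isocitrate dehydrogenase, came closest in NS cells. It had 806, 704, 602 and 604 CPM in NS-Veh and 968, 899, 790 and 753 CPM in NS-1nM DHT. The highest vehicle library lay above some DHT libraries, and the log2 fold change was 0.35 (SE 0.09, edgeR FDR 0.0205), a miss that turned into a call under the settings named above. In SLIRP siRNA cells it had 576, 518, 597 and 570 CPM with vehicle and 837, 905, 798 and 747 with DHT, which do not overlap. There it was called, with a log2 fold change of 0.52 (SE 0.09, edgeR FDR 0.000415). LDHA was the other member called in SLIRP siRNA cells, at 0.37 (SE 0.08, edgeR FDR 0.00717), from the 472 to 609 CPM of SLIRP-Veh to the 674 to 798 CPM of SLIRP-1nM DHT. This LDHA call was lost in 10 of 27 alternatives, among them leaving out replicate 3 or 4 of SLIRP-1nM DHT, replicate 1, 2 or 4 of SLIRP-Veh or replicate 3 of NS-Veh, with an edgeR FDR of up to 0.0411. IDH1 and LDHA were 2 members higher and 0 lower, where 0.636% of all genes were higher and 0.534% lower.

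In SLIRP siRNA cells 29 of 38 members (76.3%) had a positive log2 fold change with DHT, against 49.8% of all genes, and the median was 0.09 against -0.00 over all genes. An unadjusted edgeR p under 0.05 was found for 8 members (21.1%) and for 15.6% of all genes. The libraries were separated upward for 5 members (ENO1, LDHA, DLAT, CS and IDH1), against 4.57% of all genes, and downward for OGDH, against 3.65%. DLAT (0.47, SE 0.12, edgeR FDR 0.0180) and CS (0.30, SE 0.08, edgeR FDR 0.0203) missed the threshold. IDH2, the mitochondrial NADP-linked enzyme, was at -0.28 (SE 0.11, edgeR FDR 0.184) where IDH1 was higher. The IDH1 share of the reads of both enzymes was 75.5% ± 1.84 with vehicle and 84.2% ± 2.65 with DHT, and 82.7% ± 3.58 and 85.1% ± 1.90 in the respective NS groups.

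**Figure D5:**
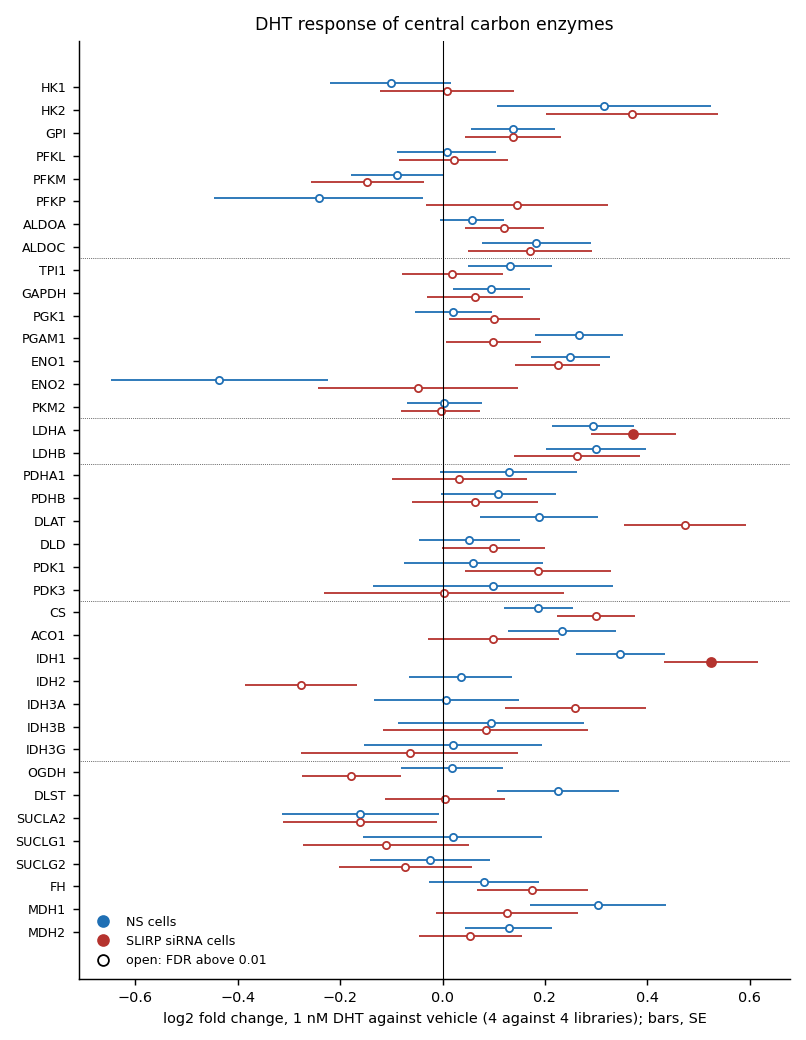
Log2 fold change of the 38 members with 1 nM DHT against vehicle (x axis, 4 against 4 libraries, bars are standard errors), in NS cells (blue) and in SLIRP siRNA cells (red). Filled points passed an FDR of 0.01, which only IDH1 (0.52) and LDHA (0.37) in SLIRP siRNA cells did.

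Whether the DHT response differed between the siRNAs was tested as an interaction. No member passed in either direction, as with all genes tested (0% higher and 0% lower). DESeq2 called 0 members as well. An unadjusted edgeR p under 0.05 was found for 1 member, IDH2, and for 388 of 10684 genes. The difference for IDH2 was -0.32 on the log2 scale, with an interval of ±2 SE from -0.64 to -0.01. For IDH1 the difference was 0.18 (interval -0.08 to 0.43) and for LDHA 0.07 (interval -0.17 to 0.31). A call in SLIRP siRNA cells and none in NS cells is therefore not a difference shown by the test.

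Genes around the core enzymes were counted in 6 further lists with 84 genes listed in the table, of which 56 were tested. With SLIRP siRNA over 16 libraries, 7 of the 56 were higher (12.5%) and 12 lower (21.4%), with a median log2 fold change of -0.11. Over all genes 17.8% were higher and 17.4% lower, so both shares were near the background, and the counts by list below are small. Of the enzymes that set fructose 2,6-bisphosphate, the strongest activator of phosphofructokinase, PFKFB3 was higher by 1.47 (SE 0.20, edgeR FDR 3.42e-07) and PFKFB4 by 1.14 (SE 0.22, edgeR FDR 9.59e-05). PFKFB3 had 1.94 to 11.9 CPM over NS-Veh and 21.0 to 24.6 CPM over SLIRP-Veh, with a lowest count of 1 read. PFKFB2, which had the highest level of the PFKFB genes, was not called. It averaged 49.4 CPM in NS-Veh and 45.5 CPM in SLIRP-Veh, and with DHT 53.4 CPM for NS and 56.2 CPM for SLIRP siRNA. In the same list of 11 tested genes PGM1, which links glucose phosphate to glycogen, was lower (-1.06, SE 0.21), as was BPGM (-0.48, SE 0.13). Within vehicle 0 genes of this list were called lower, and within DHT 1 was. PGM1 had 17.5 to 29.8 CPM in NS-Veh and 8.77 to 21.0 CPM in SLIRP-Veh, which overlap. Its lowest count was 3 reads, in SLIRP-1nM DHT.

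Among 12 tested transporters, SLC16A1, the lactate and pyruvate carrier MCT1, was higher, from 70.7 to 125 CPM over NS-Veh to 136 to 170 CPM over SLIRP-Veh, with a log2 fold change of 0.95 (SE 0.09, edgeR FDR 1.09e-09). SLC16A7, which encodes MCT2, was lower (-0.94, SE 0.27, edgeR FDR 0.00441), as was the glucose carrier SLC2A12 (-0.42, SE 0.10). SLC16A7 was near the floor, with 3 to 10 reads in SLIRP-Veh. Its groups overlapped in DHT, at 8.39 to 15.3 CPM for NS and 2.89 to 12.7 CPM for SLIRP siRNA. In the siRNA contrast within DHT, 0 of the 12 transporters were called lower. In the pentose phosphate pathway 0 of 10 tested genes were higher and 3 were lower. These were H6PD, the dehydrogenase of the endoplasmic reticulum (-1.08, SE 0.08, edgeR FDR 3.71e-12), RPE (-0.70, SE 0.15) and PGLS (-0.62, SE 0.15). Of 13 tested genes in the rest of the TCA cycle and its side reactions, 2 were higher and 4 lower. The lower ones included PC, pyruvate carboxylase (-0.62, SE 0.14), ACLY, ATP citrate lyase (-0.35, SE 0.08), and ME1, malic enzyme (-0.33, SE 0.08), all with an edgeR FDR of at most 0.00119. FAHD1 was among the higher ones (0.40, SE 0.11).

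In the 2 remaining lists few genes passed. LIAS, the lipoic acid synthase that the dehydrogenase complexes need, was higher among 6 tested genes of pyruvate dehydrogenase regulation (0.64, SE 0.19, edgeR FDR 0.00684). Within vehicle and within DHT, 0 of the 6 were called higher. LIAS was near the floor, with 3 to 22 reads in NS-Veh. Its groups overlapped at their edges, at 6.83 to 14.6 CPM in NS-Veh and 14.5 to 21.3 CPM in SLIRP-Veh. Of 4 tested further isoforms, PGAM4 was higher (0.38, SE 0.10), a near copy of PGAM1 that can share its reads, and DHTKD1 was lower (-0.44, SE 0.11). With DHT, 1 of the 56 genes was called higher in NS cells (1.79%, against 0.849% of all genes) and 2 in SLIRP siRNA cells (3.57%, against 0.636%). BRP44, a subunit of the mitochondrial pyruvate carrier now named MPC2, was higher in both, from 148 to 201 CPM over NS-Veh to 306 to 350 CPM over NS-1nM DHT (log2 fold change 0.86, SE 0.09, edgeR FDR 7.89e-08), and by 0.77 (SE 0.09) in SLIRP siRNA cells. ACLY was higher with DHT in SLIRP siRNA cells (0.35, SE 0.08, edgeR FDR 0.00444).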

How the data were processed

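Total RNA from 16 LNCaP libraries was sequenced as single reads of 50 bases. Alignment was to hg19, and the authors deposited estimated counts per gene, rounded to whole numbers. Per the labels, the submitters' processing notes name CASAVA and RSEM, without versions. The authors also deposited a normalized table, a score on a linear scale in which each count is divided by its library's upper quartile, with 13148 genes. Entries with no symbol held at most 0.0420% of a library. The members, lists and words were chosen with earlier results of these data known.

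The estimated counts were tested with edgeR 4.0.16 in R 4.3.3 (TMM normalization, filterByExpr, quasi-likelihood test, Benjamini-Hochberg over all genes tested, FDR 0.01), with SLIRP siRNA against NS over 16 libraries, DHT against vehicle in the 8 NS libraries, and the other comparisons as contrasts of a 4-group model. CPM are TMM-scaled. Levels per kb used the canonical GENCODE transcript length. Named with every library were the 6 largest rises and falls among called members, members called with DHT and their isoforms. Other lists name their 3 largest called genes, and BPGM, ACLY, ME1 and FAHD1 were added after their values were seen. Some genes that this rule would name are not reported here. The models were tested on simulated data. Alternatives were DESeq2 1.42.0, upper-quartile and RLE scaling, no filter or 10 counts in every library, an FDR of 0.05, limma 3.58.1 on the normalized table (pseudocount 1 or 0.1), treatment as a covariate, other sets of libraries, a replicate block and leaving out each library. Plots were made with matplotlib 3.10.9 (Python 3.11.15).

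Replicate numbers were not taken as pairs. A library shows no share under 3 counts of its total, and this and all counting limits cover counting error only. The biological replicates are not described further, so p-values measure the spread between these libraries.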

Additional observations from a re-analysis of the deposited data

Results flagged for a closer look

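Of 152 sets of 4 libraries (38 members in 4 groups), 6 held a library that stood far from its other replicates, by a gap that is rare in 4 values. Chance gives such a library in about 1 set of 20. PFKM had 127 CPM in the fourth SLIRP-1nM DHT library, against 104 to 105 in the other replicates, and was still below every control. PFKP had 33.3 CPM in the fourth SLIRP-Veh library, against 47.2 to 49.95. LDHA had 472 CPM in the second SLIRP-Veh library, against 586 to 609, and IDH2 in the same library had 145 CPM, against 195 to 201. PDK3 had 34.1 CPM in the fourth SLIRP-1nM DHT library, against 18.3 to 19.4, from 42 counts. MDH1 had 43.3 CPM in the second NS-Veh library, against 65.6 to 67.5, from 19 counts, and that library had the lowest total of all, 436353 reads.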

How the results depend on the processing

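The 30 log2 fold changes of named members were recomputed in 805 alternatives and left-out libraries. The call held in 735 of these and was lost in 70, and the direction reversed in 0. The looser FDR of 0.05 is counted among them and uses the main fit, so it could not lose or reverse a call. The tally covers named members only, most of them picked for large called changes, and does not stand for all calls. PKM2 and CS are not in it. Over 16 libraries the PKM2 call was lost without any of 10 libraries, and the CS call without any of 9. PFKM was called in all its alternatives and left-out libraries in each contrast with NS. In each contrast with a called member the count fell furthest with limma on the normalized table (pseudocount 1, then 0.1). Over 16 libraries it called 4 and 4 members higher instead of 11, in vehicle 2 and 3 higher instead of 6 and 1 and 1 lower instead of 2, in DHT 0 and 1 higher instead of 8 and 2 and 2 lower instead of 4, and with DHT in SLIRP siRNA cells 0 and 0 instead of 2. Over all genes the calls higher went in the same order from 1812 to 1344 and 1348, 1256 to 762 and 766, 1370 to 553 and 574, and 68 to 6 and 8. The cause was not tested. An FDR of 0.05 gave 10 higher and 6 lower in vehicle, 2 higher with DHT in NS cells and 4 in SLIRP siRNA cells. Over all genes it gave 1755 higher and 1646 lower in vehicle, and 164 and 157 higher in the respective DHT contrasts. With DHT in NS cells (0 called) no filter on low counts gave 2 members (LDHA and IDH1) and at least 10 counts in every library gave 1 (IDH1). Over all genes the calls higher there were 153 and 78, against 88 in the main test. With DHT in SLIRP siRNA cells (2 called) upper-quartile scaling or only the 2 groups compared gave 1. Over all genes the calls higher there were 52 and 55, against 68 in the main test.

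Libraries with the same replicate number correlated by 0.000428 to 0.20 in their deviations from the group means, not over 0.1 in every pair, so the numbers were not used as pairs, and 3 to 5 of 8 libraries in a contrast correlated best with their own number. With the replicate block, 3 members were higher with DHT in NS cells (ENO1, LDHA and IDH1), 4 with DHT in SLIRP siRNA cells (those called plus DLAT and CS), and 13 higher and 6 lower with SLIRP siRNA over 16 libraries, where the calls higher over all genes went from 88 to 169, from 68 to 98 and from 1812 to 2007. A covariate for numbers 1 and 2 against 3 and 4, chosen after seeing the data, gave 3 and 4 for the DHT contrasts. With it, 182 and 106 of all genes were called higher.

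Leaving out 1 library gave 9 to 12 members higher and 6 lower over 16 libraries, 3 to 6 higher (3 without the fourth SLIRP-Veh library) and 2 to 3 lower in vehicle, 6 to 10 higher and 2 to 4 lower in DHT (2 lower without the first NS-1nM DHT library), 0 to 1 higher with DHT in NS cells (1 without NS-Veh replicate 1 or NS-1nM DHT replicate 4), 1 to 2 higher with DHT in SLIRP siRNA cells (1 without NS-Veh replicate 3, SLIRP-Veh replicate 1 or SLIRP-1nM DHT replicate 3 or 4), and 0 in the interaction. Over all genes the calls higher ranged from 1715 to 1825 over 16 libraries, 987 to 1283 in vehicle and 1190 to 1453 in DHT. The calls lower ranged from 1552 to 1761, 790 to 1123 and 957 to 1251 in the same order. With DHT the calls higher ranged from 56 to 76 in NS cells and 44 to 73 in SLIRP siRNA cells. Without the fourth SLIRP-Veh library, 1157 genes were higher in vehicle, against 1256 in the main test. Depth limits the rarer members: the lowest count in any library was 7 for PDK3, 9 for HK2, PFKP and ENO2 and 12 for IDH3G.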

Other observations

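In all 4 groups, replicates 1 and 2 were both below replicates 3 and 4 for 4 of the 38 members (10.5%), namely TPI1, GAPDH, ENO1 and LDHA, as for 78 of 10684 genes tested (0.730%). The opposite held for 0 members and for 71 genes (0.665%). For example, GAPDH had 1575 and 1669 CPM in the first and second NS-Veh libraries and 1919 and 2039 CPM in the others. The split was noticed after seeing the data, and the sources used here do not assign replicate numbers to the 2 experiments.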
